A study of Sus scrofa with 5 samples.

Results

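Genes of skeletal muscle, both of the contractile apparatus and of its energy and calcium metabolism, were followed in the backfat of 5 pigs. The list holds 46 genes, and 35 of them had at least 1 probe set annotated with that symbol alone. A gene with several was represented by 1 probe set, chosen by its mean over the 5 arrays, which had to be the highest. The list itself was drawn up with earlier results of these arrays known, so the values are a description. All animals were females of a cross in which F1 boars (Iberian × Landrace) were mated to Landrace sows, fed the same commercial diet at will, and sorted by the fatty acid composition of their muscle. BC4, BC5 and BC6 belonged to the H group, with more polyunsaturated fatty acids in muscle, and BC2 and BC3 to the L group, with more saturated and monounsaturated ones. RNA of each animal was hybridized to 1 Affymetrix porcine array, on which a probe set is a group of short oligonucleotides against 1 transcript. The authors deposited log2 values that they had adjusted for background, normalized between arrays and summarized per probe set. A value of 2.17 is the floor of the table. A gene within 0.01 of it on all 5 arrays has no measured level, which held for 27.6% of the 23999 probe sets tested. The median over these probe sets lay between 4.21 and 4.29 on the 5 arrays.

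Skeletal muscle contracts when myosin heads of the thick filament pull on the actin of the thin filament, and calcium released from the sarcoplasmic reticulum allows this through troponin and tropomyosin. Fast and slow fibres build the same machinery from different genes, with their own myosin heavy chains, light chains, troponins and calcium-handling proteins. Backfat is the adipose layer under the skin of the back, and is made mainly of adipocytes. In RNA of a whole tissue, fewer fibres and less RNA per fibre cannot be told apart.

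Of the 35 measured genes, 25 were above the floor on at least 1 array and 10 were at the floor on all 5. These 10 were MYL2, MYBPC1, TNNI1, TNNC1, MYOT, ATP2A1, CASQ2, RYR1, MSTN and MYF6. A further 11 genes were not measured, as no probe set was annotated with their symbol alone, namely MYH1, MYH3, MYH4, MYBPC2, ACTA1, ACTN3, LDB3, MB, CASQ1, TRIM63 and MYOG. The span of a gene, its highest minus its lowest array value, was at least 1 for 16 of the 25 genes above the floor, where 24.7% of all probe sets above the floor had such a span. It was between 0.5 and 1 for 3 genes and under 0.5 for 6.

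MYH2, a myosin heavy chain of fast fibres, had the widest span of the 35 measured genes. Its log2 value was 2.17 (BC2) and 4.75 (BC3) in L and 2.71 (BC4), 7.84 (BC5) and 2.17 (BC6) in H. BC5, of the H group, was thus far above the floor, BC3, of the L group, came next, and BC2 and BC6 were at the floor itself. MYH2 lies beside MYH1 and MYH4 in the pig RefSeq annotation (Sscrofa11.1), and the 3 fast heavy chains are related genes. Whether this probe set also reads MYH1 or MYH4 transcripts was not tested.

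The light chains of fast myosin kept the order of MYH2 at the top. MYL1, the alkali light chain, was at 2.59 (BC2) and 5.43 (BC3) in L and 2.93 (BC4), 7.52 (BC5) and 2.58 (BC6) in H. MYLPF, the regulatory light chain, was at 2.26 (BC2) and 4.75 (BC3) in L and 2.26 (BC4), 6.10 (BC5) and 2.22 (BC6) in H. For both genes BC3 and BC5 stood apart from the other 3 arrays, which were at 2.22 to 2.93 and came from both groups.

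The fast troponins form the calcium switch of the thin filament, and BC3 and BC5 stood apart together in TNNC2 among them. TNNC2, the calcium-binding subunit, was at 3.05 (BC2) and 5.69 (BC3) in L and 3.52 (BC4), 7.32 (BC5) and 2.62 (BC6) in H. TNNI2, the inhibitory subunit, was at 2.25 (BC2) and 2.85 (BC3) in L and 2.47 (BC4), 4.21 (BC5) and 2.47 (BC6) in H. TNNT3, which ties troponin to tropomyosin, spanned only 0.77, from 2.24 on BC6 to 3.01 on BC5. In TNNI2 and TNNT3 only BC5 stood apart, as BC3 was close to the other arrays. In all 6 fast genes above the floor BC5 was highest and BC3 second, an order chosen for description after the values were seen. Among the 16640 probe sets whose values spanned more than 0.01, BC5 was highest in 27.2%, and BC5 came first and BC3 second in 6.98%. For the 5 fast genes with a span of at least 1, BC5 exceeded BC3 by 1.34 to 3.09 on the log2 scale, with a median of 1.63.

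**Figure D1:**
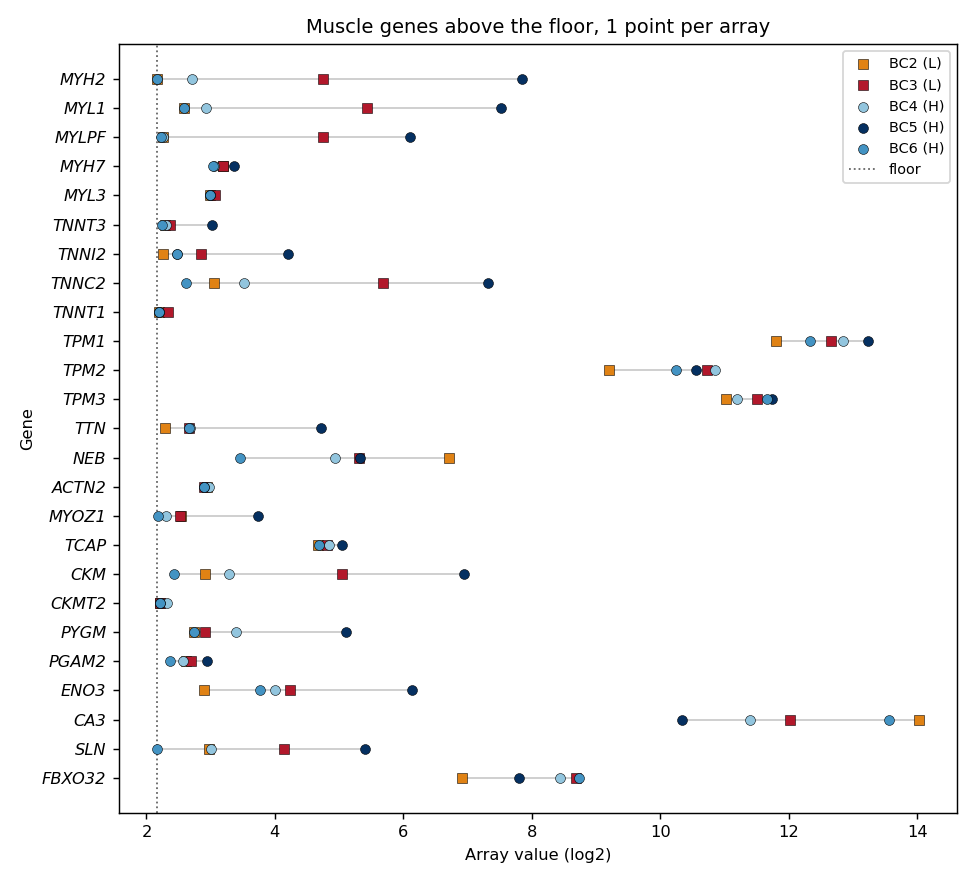
Array values (log2, horizontal axis) of the 25 muscle genes above the floor (vertical axis), with 1 point per array, squares for the L group, circles for the H group, a grey line for the span of each gene and a dotted line at the floor of 2.17. BC5 (dark blue) is rightmost for 17 of the 25 genes, and for MYH2, MYL1, MYLPF, TNNC2 and CKM BC3 (red) follows it while the other 3 arrays lie lower.

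The 8 genes counted as slow were MYH7, MYL2, MYL3, MYBPC1, TNNT1, TNNI1, TNNC1 and CASQ2, and CA3 was kept apart because adipocytes also make it. All 8 had a probe set, and 5 of them (MYL2, MYBPC1, TNNI1, TNNC1 and CASQ2) were at the floor on all 5 arrays. MYH7, the slow myosin heavy chain, was at 3.19 (BC2) and 3.19 (BC3) in L and 3.05 (BC4), 3.36 (BC5) and 3.04 (BC6) in H, a span of 0.33. MYL3, a slow light chain, was at 2.99 on every array but BC3, where it was at 3.07. TNNT1, the slow troponin T, was at 2.20 on every array but BC3, at 2.33. The highest array was BC5 for MYH7 and BC3 for MYL3 and TNNT1. Of the 3 slow genes above the floor none had a span of at least 1, against 5 of the 6 fast genes above the floor. The genes counted as fast were 12, and 7 of them had a probe set. Of these 7, ATP2A1 was at the floor on all 5 arrays. MYL3 had the same value to 4 decimals on 4 arrays, TNNT1 on 3 and MYH7 on 2, so these probe sets held little or no measured signal.

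To set fast against slow genes without comparing levels of different probe sets, each gene was centred on its own mean over the 5 arrays. The mean deviation of the 6 fast genes was -1.13 (BC2) and 0.74 (BC3) in L and -0.86 (BC4), 2.44 (BC5) and -1.18 (BC6) in H. That of the 3 slow genes was -0.0056 (BC2) and 0.06 (BC3) in L and -0.05 (BC4), 0.05 (BC5) and -0.06 (BC6) in H. With so little variation in the slow genes, fast minus slow restates the values of the fast genes. It was 2.38 on BC5 and 0.68 on BC3, and between -1.13 and -0.81 on the other 3 arrays.

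**Figure D2:**
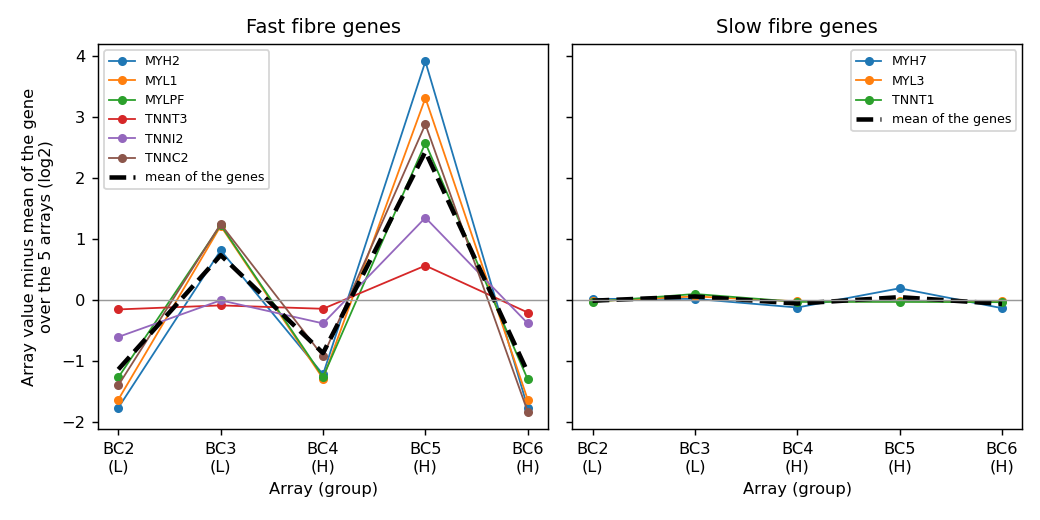
Deviation of each array (horizontal axis, group in brackets) from the mean of the gene over the 5 arrays (log2, vertical axis) for the 6 fast and the 3 slow fibre genes above the floor, with a line joining the values of 1 gene and a dashed line for the mean of the genes. The 6 fast genes peak on BC5, and 4 of them lie at 0.82 or more on BC3, while the farthest value of a slow gene is that of MYH7 on BC5, at 0.20.

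Titin and nebulin, the giant proteins along the thick and thin filaments, differed from each other. TTN was at 2.28 (BC2) and 2.67 (BC3) in L and 2.68 (BC4), 4.72 (BC5) and 2.67 (BC6) in H, so that BC5 alone was raised above the others. A further TTN probe set was at the floor on 4 arrays and at 4.47 on BC5. NEB was at 6.71 (BC2) and 5.31 (BC3) in L and 4.94 (BC4), 5.32 (BC5) and 3.46 (BC6) in H. Its highest array was BC2, where MYH2 was at the floor.

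The tropomyosins lie along actin and are also made in smooth muscle and other non-muscle cells. TPM1 was at 11.81 (BC2) and 12.66 (BC3) in L and 12.84 (BC4), 13.24 (BC5) and 12.33 (BC6) in H. TPM2 was at 9.20 (BC2) and 10.72 (BC3) in L and 10.86 (BC4), 10.56 (BC5) and 10.25 (BC6) in H. TPM3 ran from 11.02 on BC2 to 11.74 on BC5. All 3 were lowest on BC2 and far above the floor everywhere. Of the further TPM2 probe sets, 1 was at 2.17 on BC2, 2.57 on BC3, BC4 and BC6 and 3.90 on BC5, an order that the other probe sets of TPM2 did not have.

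Of the Z-disc proteins, which anchor the thin filaments, MYOZ1 showed the largest span. It was at 2.54 (BC2) and 2.53 (BC3) in L and 2.30 (BC4), 3.73 (BC5) and 2.18 (BC6) in H. TCAP, which caps titin, ran from 4.67 on BC2 to 5.05 on BC5, and ACTN2, an α-actinin, from 2.90 to 2.98. MYOT was at the floor on all arrays.

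Creatine kinase and the enzymes of glycogen use and glycolysis supply ATP to the fibre. CKM, the cytosolic muscle creatine kinase, was at 2.91 (BC2) and 5.04 (BC3) in L and 3.28 (BC4), 6.95 (BC5) and 2.43 (BC6) in H, in the order of the fast myosin genes. ENO3, the muscle enolase, was at 2.90 (BC2) and 4.24 (BC3) in L and 3.998 (BC4), 6.13 (BC5) and 3.76 (BC6) in H. PYGM, the muscle glycogen phosphorylase, was at 2.75 (BC2) and 2.91 (BC3) in L and 3.39 (BC4), 5.10 (BC5) and 2.75 (BC6) in H. BC5 was the highest array for these 3 genes, whereas the second was BC3 for CKM and ENO3 and BC4 for PYGM. Another PYGM probe set was also highest on BC5 (3.46), but BC3, BC4 and BC6 shared the value 2.30. The remaining PYGM probe sets were at the floor on all arrays. PGAM2, the muscle phosphoglycerate mutase, ran from 2.37 on BC6 to 2.94 on BC5, and CKMT2, the mitochondrial creatine kinase of muscle, from 2.21 to 2.32.

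CA3, a carbonic anhydrase of slow fibres that adipocytes also make in large amounts, ran the other way. It was at 14.03 (BC2) and 12.01 (BC3) in L and 11.40 (BC4), 10.33 (BC5) and 13.55 (BC6) in H. Its lowest array was therefore BC5, the highest for the fast fibre genes, and the other CA3 probe set gave 13.45, 11.10, 10.29, 9.26 and 12.68 in the same order of arrays.

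Of the 4 measured genes of the list that act at the calcium store, SLN, an inhibitor of the calcium pump, was the 1 above the floor. It was at 2.98 (BC2) and 4.14 (BC3) in L and 3.01 (BC4), 5.40 (BC5) and 2.17 (BC6) in H, again highest on BC5 and second on BC3. The pump of fast fibres (ATP2A1), calsequestrin 2 (CASQ2), which binds calcium in the store, and the release channel RYR1 were at the floor on all 5 arrays.

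Of the regulators, FBXO32, a ubiquitin ligase induced in wasting muscle and present in other tissues, was at 6.91 (BC2) and 8.68 (BC3) in L and 8.43 (BC4), 7.80 (BC5) and 8.74 (BC6) in H. BC2 was its lowest array and BC6 its highest, unlike the fast genes. The other FBXO32 probe set was also highest on BC6 (6.91), but its lowest array was BC5 (5.15), followed by BC2 (5.29). MSTN, which restrains muscle growth, and MYF6, a transcription factor of myofibres, were at the floor on all arrays with both of their probe sets.

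Over the 16 genes with a span of at least 1, BC5 was the highest array for 12. Among all 4293 probe sets with such a span it was the highest for 29.7%. BC5 first and BC3 second was the order of 8 of the 16 genes, MYH2, MYL1, MYLPF, TNNI2, TNNC2, CKM, ENO3 and SLN, against 8.85% of these probe sets. These counts describe arrays of 1 animal each and carry no test. Counting all 25 genes above the floor, 19 lay above their own mean on BC5 and 18 on BC3, against 4 on BC2, 7 on BC4 and 3 on BC6. The median deviation of the 25 genes was 0.57 on BC5 but only 0.06 on BC3. It was -0.56 on BC2, -0.21 on BC4 and -0.27 on BC6. Many of the genes counted on BC3 thus lay only just above their mean, and the same count over all probe sets was not made.

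The contrast of the study, H against L, was fitted with limma over all 23999 probe sets. The thresholds were 0.01 for p, 0.1 for the adjusted p and 1.2 for the fold, all required together. No muscle gene met them, and the share of all probe sets that did was 0%. None had an unadjusted p under 0.05 in limma either, against 3.18% of all probe sets. The H and L arrays overlapped for all 25 genes above the floor. Groups without overlap were seen for 16.9% of the probe sets above the floor (H above L in 9.12%, H below L in 7.78%). The mean of H was above that of L for 18 of the 25 and below it for 7, against 55.1% and 44.9% of these probe sets. It was above for 15 when the medians of the arrays were set equal, for 10 without BC5 and for 11 without BC2. The median difference over the 25 genes was 0.19, and it was 0.0083 over all probe sets above the floor.

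The mean of MYH2 was 4.24 ± 3.13 in H (SD, n = 3) and 3.46 ± 1.82 in L (SD, n = 2). H exceeded L by 0.78, for which limma gave a standard error of 2.39 and an adjusted p of 1. The spread within each group was thus wider than the difference between them. Without BC5 the difference of MYH2 was -1.02, without BC2 -0.51 and without BC3 2.07. TNNC2 gave 0.12 (standard error 1.99), with -1.30 without BC5 and 1.44 without BC3. CKM gave 0.25 (standard error 1.85), with -1.12 without BC5 and 1.31 without BC3. With an H array first and an L array second in these genes, the signs without BC5 or BC3 restate the order of the arrays.

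The smallest p of the 35 measured genes was that of NEB, with a mean of 4.57 ± 0.981 in H (SD, n = 3) and 6.01 ± 0.992 in L (SD, n = 2). H minus L was -1.44, with a standard error of 0.850, and the arrays of the groups overlapped. With all 5 arrays, the adjusted p of limma was 1 for NEB, as for every measured gene of the list. TPM1 differed by 0.57 (standard error 0.440), PYGM by 0.92 (standard error 0.861) and ENO3 by 1.06 (standard error 1.04), with overlapping arrays for each. Without BC5, PYGM differed by 0.24 and ENO3 by 0.31. With the mean of all its probe sets in place of the chosen one, PYGM differed by 0.33 over all arrays. CA3 differed by -1.26 (standard error 1.36), and by -0.54 without BC5 and -2.27 without BC3. Without BC2, NEB differed by -0.74, TPM1 by 0.14, ENO3 by 0.39 and CA3 by -0.25. For MYL3 and TNNT1 the differences were -0.04 and -0.07. The fast minus slow deviation was 0.37 higher in H over all arrays, 0.74 lower in H without BC5 and 0.53 lower in H without BC2.

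**Figure D3:**
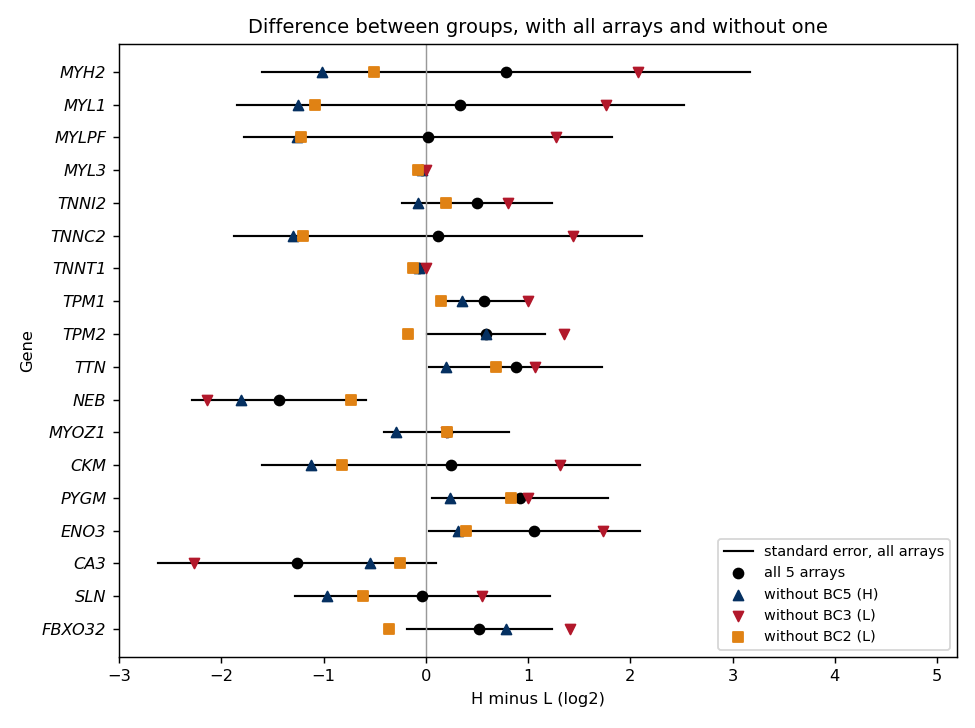
Difference between the group means, H minus L (log2, horizontal axis), of the 18 muscle genes (vertical axis) with a span of at least 1 or among the 5 smallest p, with all 5 arrays (black, bar for the standard error from limma) and without BC5, BC3 or BC2. For MYH2, MYL1, MYLPF, TNNC2 and CKM the sign is negative without BC5 or BC2 and positive without BC3.

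A list of 68 other genes known from skeletal muscle was set beside these, and 30 had a probe set, 19 of them above the floor. Of the 19, 5 had BC5 as the highest array and 2 had BC5 first and BC3 second, and the median deviation of the list was between -0.04 and 0.03 on the 5 arrays. Only 7 of the 19 had a span of at least 1, so most could move this median little, and GYS1 and HSPB7 spanned under 0.01. FABP3 was far above the floor everywhere, at 12.36 to 13.37, as the tropomyosins were. TMOD4, which caps thin filaments in muscle, was at 4.07 (BC2) and 5.25 (BC3) in L and 4.76 (BC4), 6.06 (BC5) and 4.05 (BC6) in H, with the top order of MYH2. CHRNA1, a subunit of the acetylcholine receptor of the nerve-muscle junction, was at 5.03 (BC2) and 4.40 (BC3) in L and 4.11 (BC4), 2.83 (BC5) and 4.71 (BC6) in H, the lowest value being that of BC5. No gene of this list passed the threshold in limma. PFKM, a phosphofructokinase, was at 6.54 (BC2) and 6.68 (BC3) in L and 6.47 (BC4), 5.56 (BC5) and 5.12 (BC6) in H. COX7A1, a subunit of cytochrome c oxidase, was at 10.95 (BC2) and 10.28 (BC3) in L and 10.00 (BC4), 9.61 (BC5) and 10.11 (BC6) in H. Of the 19 genes, PFKM and COX7A1 had all H arrays below the L arrays, and CMYA5, a muscle protein at 2.22 to 2.57, had them above, where 7.78% and 9.12% of the probe sets above the floor did so. PFKM and COX7A1 had differences of -0.90 (standard error 0.490) for PFKM and -0.71 (standard error 0.298) for COX7A1 and an adjusted p of 1 in limma. HRC, a calcium-binding protein of the store, was at 2.30 on BC2, BC4 and BC6, 2.22 on BC3 and 2.32 on BC5. PAX3, MYF5 and MYOD1, factors of muscle precursors, were at the floor on all arrays, as were the cardiac genes NPPA, NPPB and TNNT2.

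The samples are labelled as backfat, but the note on RNA extraction speaks of liver, so markers of both were read. The 8 measured adipocyte markers of 12 were all above the floor, and FABP4, a fatty acid carrier, was at 15.36 to 15.49. Of the 9 hepatocyte markers, 8 were above the floor on at least 1 array. ALB, the albumin secreted by liver, ran from 2.58 to 4.69, TTR and CYP2E1 stayed at or below 2.23, and APOA1, an apolipoprotein, ran from 11.29 to 12.57. Summed over the 8 adipocyte genes, the log2 values were 83.8 on BC5 and 91.6 to 94.2 on the other arrays. LEP, the adipocyte hormone leptin, was at 9.33 (BC2) and 8.43 (BC3) in L and 8.27 (BC4), 4.41 (BC5) and 10.48 (BC6) in H, and ADIPOQ, adiponectin, ran from 9.09 on BC5 to 12.20 on BC4. BC5, the highest array for the fast fibre genes, was the lowest for both hormones and for the adipocyte genes CEBPA and LPL. It was the highest for 2 of the 8 adipocyte genes, FABP4 and LIPE. The lowest array was BC4 for PPARG and BC6 for PNPLA2. LEP had the widest span of the 8 genes, 6.07, and weighed most on the sum.

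Endothelial markers also had BC5 as the highest array for 6 of 7 genes, with a median deviation of 0.84 there and -0.01 on BC3. Of the 6, KDR was at the floor on every array but BC5, where it was at 2.21, and may hold no measured signal. The sum of the log2 values of the 7 endothelial genes was 63.5 on BC5, 58.8 on BC3 and 54.7 to 57.9 on BC2, BC4 and BC6. Macrophage markers were highest on BC6 in 5 of 5 genes, with a sum of 37.2 against 27.4 to 32.2, and fibroblast markers in 3 of 3. Smooth muscle markers were highest on BC4 in 4 of 5, with sums of 51.6 on BC4, 42.8 on BC2 and 47.1 to 49.4 on the rest. In 3 heat shock genes, picked after their values were seen, BC5 was also first and BC3 second, whereas BC6 came next, the lowest array in most fast fibre genes. HSP70.2 was at 11.11 (BC2) and 13.45 (BC3) in L and 12.14 (BC4), 14.65 (BC5) and 12.25 (BC6) in H, and DNAJB1, its cochaperone, at 8.80, 10.85, 9.28, 11.85 and 9.70 in turn. HSPA6 was at 11.59 on BC5 and at 3.64 to 4.66 on the others. The part of these cell types, or of heat shock, in the values of the muscle genes was not tested.

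**Figure D4:**
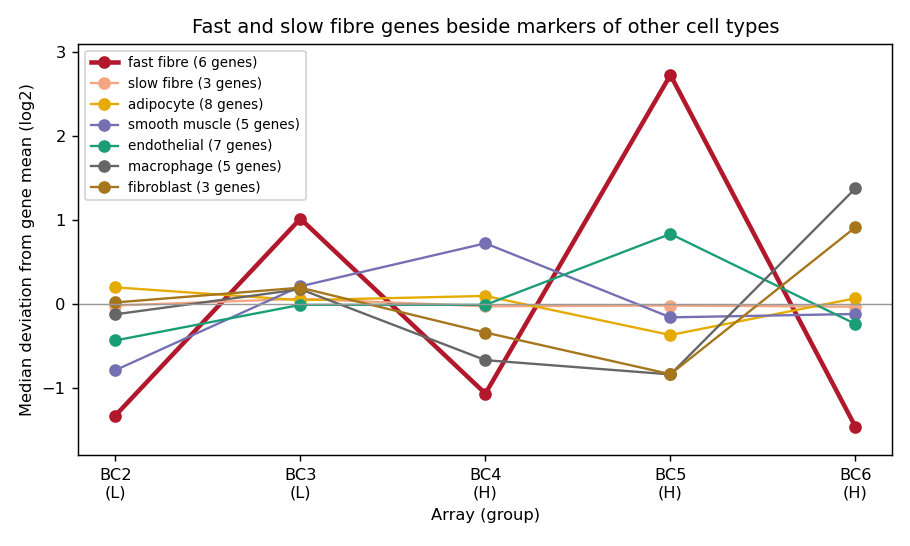
Median deviation from the gene mean (log2, vertical axis) on each array (horizontal axis, group in brackets) for fast and slow fibre genes and for markers of 5 other cell types, with the number of genes above the floor in the key and lines joining the values of 1 list. The fast fibre genes stand at 2.73 on BC5 and 1.02 on BC3, the slow ones stay near 0, and macrophage markers peak at 1.38 on BC6.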

How the data were processed

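Backfat RNA of 3 H and 2 L animals was measured on Affymetrix porcine arrays, 1 per animal. The authors adjusted the scans for background, normalized them and deposited a log2 value per probe set. The methods name GCRMA and the submitters' processing notes RMA, so the method is not settled. Liver is named in the note on extraction, and backfat in the tissue label and the methods. The group of each animal name was taken from the study. Of 24123 probe sets, 124 controls were left out and 23999 tested with limma 3.58.1 (R 4.3.3), H minus L, with Benjamini-Hochberg adjustment over all of them and the RNA-Seq thresholds of the study. Genes were named through the platform annotation, with 1 symbol for 10069 probe sets. The number of arrays limits the precision. Values on each array are printed for genes above the floor with a span of at least 1 or among the 5 smallest p, and for up to 7 other muscle genes by span or p. Genes and lists were chosen with earlier results of these data known. Alternatives were other scalings, variance models, probe set choices, a filter on the dimmest 40% and leaving out each animal, or BC3 and BC5 together, the last added after the values were seen. The limma fit was tested on simulated data with known differences.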

Additional observations from a re-analysis of the deposited data

How the results depend on the processing

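No muscle gene met the 3 thresholds together under any alternative, leaving out an animal included. Without BC2, which leaves L with BC3 alone, the difference was -0.080 for MYL3 and -0.13 for TNNT1. Without BC3 and BC5, which leaves L with BC2 alone, it was 0.22 for TNNI2. All of these were under the fold of 1.2. MYL3 had the same value on BC4, BC5 and BC6, and TNNI2 on BC4 and BC6. The H arrays of these fits thus held no spread for MYL3 and TNNI2, and TNNT1 was at 2.20 on BC4, BC5 and BC6. Both fits left L with 1 animal, so no p value from them is given for the 3 genes. Under the alternatives that kept both L animals, the adjusted p of limma ran from 0.476 to 1 over these 3 genes. No paired analysis was possible because no animal number occurs in both groups. Without 1 animal, the median difference over the 25 genes ran from -0.071 to 0.55, the number with a higher mean in H from 10 to 21, and the fast minus slow difference from -0.74 to 1.28. Without H replicate 5 (BC5) the median was -0.067, the number 10 and the fast minus slow difference -0.74, and without L replicate 2 (BC2) they were -0.071, 11 and -0.53. Without 1 animal the differences ran from -1.02 to 2.07 for MYH2, -1.25 to 1.76 for MYL1, -1.26 to 1.27 for MYLPF, -0.078 to 0.80 for TNNI2, -1.30 to 1.44 for TNNC2, -0.17 to 1.35 for TPM2, -0.29 to 0.48 for MYOZ1, -1.12 to 1.31 for CKM, -0.97 to 0.64 for SLN and -0.36 to 1.41 for FBXO32, all of which turned direction. With array weights, MYL1 (-0.31), MYLPF (-0.53), TNNC2 (-0.39) and CKM (-0.25) turned, and with equal array medians MYLPF (-0.020). Without BC3 and BC5 together, the median over the 25 genes was 0.02, and MYLPF (-0.013), MYOZ1 (-0.30) and CKM (-0.049) turned. The cause was not tested. A value at the floor is only an upper bound on the signal, and 10 of the 35 measured genes had no other value. Some genes above the floor also repeated an exact value on several arrays. CKMT2 was at 2.21 on BC2, BC3 and BC5, and PYGM at 2.75 on BC2 and BC6. Such values may hold no measured signal, and the counts over the 25 genes include them.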

Other observations

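A probe set annotated as ACTG1, a cytoplasmic actin, was 1 of 6 with that symbol and was singled out after its values were seen. It was at 5.23 (BC2) and 7.47 (BC3) in L and 6.11 (BC4), 9.21 (BC5) and 5.04 (BC6) in H, so that BC5 was first and BC3 second as for MYH2. The brightest ACTG1 probe set was at 13.32 (BC2) and 13.76 (BC3) in L and 13.39 (BC4), 13.73 (BC5) and 13.84 (BC6) in H, with another order. ACTA1, the skeletal muscle actin, had no probe set of its own, and a reading of its transcripts by the former probe set was not tested.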
